A study of Mus musculus with 2 samples.

Results

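The 36 genes described here mark cells that copy their DNA or divide. They were taken by symbol from a list of known cell cycle genes, 17 of S phase and 19 of G2 and mitosis, and each symbol had exactly 1 row among the 55401 gene rows of the count matrix. The matrix holds immune cells of mouse lungs, sorted for CD45 (Ptprc), the surface protein of white blood cells, and profiled by droplet-based single-cell RNA sequencing. The labels name 1 Siah1a/2 KO sample, from mice lacking the ubiquitin ligases Siah1a and Siah2, and 1 WT sample, both taken 7 weeks after a first dose of urethane, a carcinogen that induces lung tumours. Neither strain and age nor any pooling of animals is given in the sources used here. Every cell barcode carries the ending 1 or 2, and no label ties an ending to a genotype. The libraries are therefore called library 1 and library 2, and no comparison of genotypes was made.

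A dividing cell first makes the enzymes of DNA synthesis and then the machinery of chromosome segregation. In S phase the MCM helicase, loaded by Cdc6 and switched on with Cdc45 and the GINS complex, opens the DNA, the clamp Pcna holds the polymerases in place, and Rrm1, Rrm2, Tyms and Tk1 supply nucleotides. In G2 and mitosis the kinase Cdk1 with its cyclins drives the cell into division, Aurora and Polo-like kinases build and check the spindle, and Cdc20 and Ube2c direct the destruction of cyclins at the exit. E2F factors bind S phase promoters, while the DREAM and MuvB complexes act on G2/M promoters through a short element, the cell cycle genes homology region (CHR), often next to CCAAT boxes. In inflamed tissue, T cells, NK cells and some dendritic and macrophage populations can divide locally, whereas neutrophils and monocytes are made in the bone marrow and rarely divide afterwards.

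Promoters of both sets are shown here because these elements are written in their letters. RefSeq windows of GRCm38.p6 (250 bases before to 50 after a start) matched 15 of 17 S phase members, with 17 windows, and 15 of 19 G2/M members, with 15 windows. The E2F motif TTTNNCGC, searched on both strands, occurred in 8 of the 17 S phase windows (47.1%), in 1 of the 15 G2/M windows (6.67%) and in 5.17% of all 32851 windows. The CHR motif TTTGAA, on both strands, occurred in 2 of 17 S phase windows (11.8%), 10 of 15 G2/M windows (66.7%) and 17.9% of all windows. CCAAT, on both strands, occurred in 13 of 17 (76.5%), 13 of 15 (86.7%) and 37.4%. Each motif was searched by itself and overlap with another was not removed. A match is a description of the letters and not a bound site.

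The promoters of 3 S phase members and 4 G2/M members were chosen to show the motif, which each holds before its start. Each is a stretch of 160 bases, 5′ to 3′ on the gene's strand, that ends at the RefSeq start or, in Uhrf1, Cdk1 and Cdc20, 16, 26 and 9 bases before it, because the annotation places those bases inside the gene. The helicase subunits Mcm5 (chr8:75109349-75109508, plus strand) and Mcm6 (chr1:128359706-128359865, minus strand) and the methylation cofactor Uhrf1 (chr17:56303161-56303320, plus strand) have the E2F matches in capitals.

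Mcm5: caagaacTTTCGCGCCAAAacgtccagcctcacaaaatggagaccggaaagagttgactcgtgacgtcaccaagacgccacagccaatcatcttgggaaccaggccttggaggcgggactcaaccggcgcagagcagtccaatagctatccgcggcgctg
Mcm6: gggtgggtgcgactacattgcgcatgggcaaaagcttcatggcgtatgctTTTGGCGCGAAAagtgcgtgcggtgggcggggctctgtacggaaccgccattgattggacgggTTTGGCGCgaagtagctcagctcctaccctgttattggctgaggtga
Uhrf1: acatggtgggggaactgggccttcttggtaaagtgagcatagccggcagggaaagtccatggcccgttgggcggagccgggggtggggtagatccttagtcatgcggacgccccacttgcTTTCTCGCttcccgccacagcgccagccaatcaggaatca

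Mcm5 and Mcm6 each hold a pair of overlapping matches that read on both strands, and Mcm6 a further one 47 bases before its start. Cdk1 (chr10:69352939-69353098, minus strand), the proliferation marker Mki67 (chr7:135716380-135716539, minus strand), Cdc20 (chr4:118437353-118437512, minus strand) and the topoisomerase Top2a (chr11:99024190-99024349, minus strand) have the CHR matches in capitals.

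Cdk1: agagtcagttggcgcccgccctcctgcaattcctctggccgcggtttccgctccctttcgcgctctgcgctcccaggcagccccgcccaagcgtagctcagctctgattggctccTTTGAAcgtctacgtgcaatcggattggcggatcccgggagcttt
Mki67: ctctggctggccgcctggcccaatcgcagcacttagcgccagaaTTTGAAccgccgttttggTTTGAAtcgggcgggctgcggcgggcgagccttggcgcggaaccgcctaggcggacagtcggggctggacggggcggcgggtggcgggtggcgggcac
Cdc20: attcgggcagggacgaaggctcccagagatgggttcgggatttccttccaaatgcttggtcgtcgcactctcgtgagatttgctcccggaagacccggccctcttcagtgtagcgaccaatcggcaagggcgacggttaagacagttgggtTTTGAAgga
Top2a: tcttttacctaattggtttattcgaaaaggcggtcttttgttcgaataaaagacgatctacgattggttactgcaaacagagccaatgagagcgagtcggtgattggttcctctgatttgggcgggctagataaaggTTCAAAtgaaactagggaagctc

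The match shown lies 71 bases before the start in Cdk1, 116 and 98 in Mki67, 18 in Cdc20 and 23 in Top2a, where it reads TTCAAA on this strand. Cdk1 and Top2a each hold 2 CHR matches in their windows, of which 1 lies outside the stretch shown. Cdk1 was also the G2/M member with the E2F motif in its window. It has 2 matches, 1 left in lower case here and 1 not wholly inside the stretch. Members without either motif included Pcna, Rrm2 and Ung of the S phase set and Birc5, Ccnb1 and Nusap1 of the G2/M set. In the genome the 36 members lay on 15 chromosomes, with 6 on chromosome 2 and 6 on chromosome 11. Tk1 and Birc5 were 23.2 kb apart and Cdc6 and Top2a 69.0 kb apart on chromosome 11, each a pair of 1 S phase and 1 G2/M member. Reads could be shared with near copies: 6 rows named as a pseudogene or related sequence of 5 members held 70 UMIs in all.

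Library 1 held 8522 barcodes with 86227008 UMIs (unique molecular identifiers, each 1 captured transcript), and library 2 held 6479 with 59459790. After cells with under 500 genes or over 10% mitochondrial UMIs were left out, 8066 and 6113 cells remained, with a median of 8661 and 7875 UMIs. The libraries shared 11 barcode sequences. A Ptprc UMI was found in 97.4% and 97.3% of kept cells. Cell types were gated by UMIs of marker genes, which put 6470 cells of library 1 and 5071 of library 2 into 14 gates, of which the basophil gate held cells of library 2 alone. A further 701 and 466 cells carried markers of a second lineage and were left out, and 895 and 576 passed no gate. No value has a replicate check, since each library is the single one of its kind, and every interval is an exact 95% interval that covers counting error only. UMIs tag 1 end of a transcript and are not scaled to length, so levels are compared between cells and not between genes.

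To place single cells at equal depth, each was thinned to 3000 UMIs, which left out 567 and 456 shallower cells. A thinned cell with at least 6 S phase UMIs was called S high, and one with at least 4 G2/M UMIs G2/M high. Cells that were high for either set are called cycling here and fall into 3 states, S only, S and G2/M, and G2/M only. Both numbers were chosen after the distribution over all cells was seen, and they cut a range: in the T cell gate 151 of 3128 cells of library 1 and 94 of 2597 of library 2 had 5 or 6 S phase UMIs, and 115 and 48 had 3 or 4 G2/M UMIs. Over all kept cells, 955 of 7499 cells of library 1 were cycling (12.7%, interval 11.99 to 13.5) and 570 of 5657 of library 2 (10.1%, 9.30 to 10.9).

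Cycling cells were found among T cells, NK cells, macrophages, cDC1 and mast cells, and were rare among classical monocytes. Of T cells, 17.8% were cycling in library 1 (556 of 3128, interval 16.45 to 19.2) and 11.0% in library 2 (285 of 2597, 9.80 to 12.2). For NK cells the shares were 12.2% (138 of 1134, 10.3 to 14.2) and 12.4% (123 of 990, 10.4 to 14.6). Macrophages gated by the complement genes C1qa, C1qb and C1qc had 8.70% (64 of 736, 6.76 to 11.0) and 7.98% (32 of 401, 5.52 to 11.1). Of these 3 gates, T cells had intervals of the libraries that lay apart, and in NK cells and macrophages they overlapped.

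The highest shares belonged to a small gate, cDC1, the dendritic cells that carry Xcr1 and Clec9a and present antigen to CD8 T cells. In cDC1, 16 of 42 cells were cycling in library 1 (38.1%, interval 23.6 to 54.4) and 6 of 13 in library 2 (46.2%, 19.2 to 74.9). Mast cells followed with 12 of 64 (18.8%, 10.1 to 30.5) and 11 of 57 (19.3%, 10.0 to 31.9). In both gates most cycling cells were high for G2/M, as they were in T cells, NK cells and C1q macrophages. Of cycling T cells, 140 of 556 in library 1 and 79 of 285 in library 2 were S only. For NK cells it was 60 of 138 and 58 of 123, and for macrophages 15 of 64 and 5 of 32. Among cDC1, 9 cells of library 1 and 3 of library 2 were G2/M only, and 6 and 2 were S and G2/M. Among mast cells, 8 and 7 were G2/M only and 3 and 3 S and G2/M. The cDC1 gate needs 3 marker UMIs at full depth and was the deepest gate, with medians of 21698 and 19060 UMIs. Its G2/M only cells had medians of 24130 and 33288 UMIs, beside 19281 and 15784 in its cells that were not cycling. The cDC1 shares can therefore depend on depth.

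The other dendritic cells differed from cDC1. cDC2, gated by Cd209a, Clec10a, Mgl2 and Ccl17, had 6 of 107 cycling cells in library 1 (5.61%, 2.09 to 11.8) and 8 of 93 in library 2 (8.60%, 3.79 to 16.2). Of these, 0 cells of library 1 and 5 of library 2 were G2/M only. Migratory dendritic cells, gated by Ccr7 and Fscn1 among others, had 0 of 60, where the exact interval allows up to 5.96%, and 1 of 60 (1.67%). Plasmacytoid dendritic cells had 0 of 23 and 0 of 25, which allows up to 14.8% and 13.7%.

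Classical monocytes had 1 cycling cell of 616 in library 1 (0.162%) and 1 of 390 in library 2 (0.256%). Non-classical monocytes had 0 of 142 and 0 of 63, which allows up to 2.56% and 5.69%. Neutrophils had 0 of 31 and 0 of 50, which allows up to 11.2% and 7.11%. Shallower than 3000 UMIs and left out were 58 of 89 neutrophils of library 1 and 107 of 157 of library 2. At 3000 UMIs, 56.5% and 59.0% of classical monocytes had no S phase UMI, beside 27.9% and 27.9% of T cells. The cycling shares of classical monocytes are therefore not taken as the background level of other gates, which was not measured. The median depth before thinning was 8644 and 8875 UMIs in classical monocytes, beside 7514 and 6869 in T cells. B cells had 2 of 73 (2.74%) and 0 of 29, which allows up to 11.9%. The remaining gates were small, with 1 cycling cell of 43 other myeloid cells in library 1 and 0 of 14 in library 2, and 1 of 13 basophils in library 2.

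**Figure D1:**
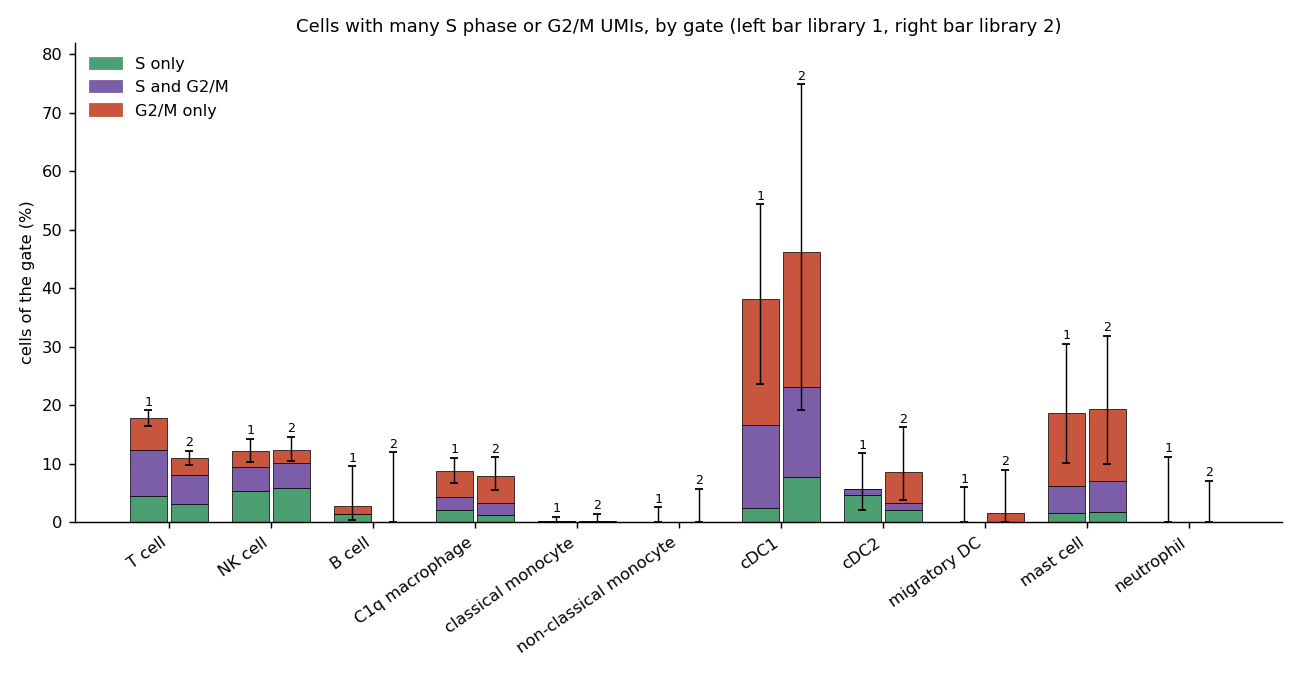
Share of thinned cells in each cycling state, in percent of the gate, for 11 gates; the left bar of a pair is library 1 and the right bar library 2, and the black line is the exact 95% interval of the whole bar. T cells reach 17.8% in library 1 and 11.0% in library 2. In T cells, NK cells, macrophages, cDC1 and mast cells most of each bar is high for G2/M. Monocyte and neutrophil bars lie at or near 0.

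The sets were also summed over all cells of a gate, shallower cells included. In CPM, UMIs per 1000000 UMIs of the gate, the S phase set summed to 1137 in library 1 and 951 in library 2 in T cells, 895 and 968 in NK cells, and 504 and 450 in C1q macrophages. The G2/M set summed to 1529 and 1064 in T cells, 932 and 699 in NK cells, and 561 and 390 in C1q macrophages. In cDC1 the S phase sum was 931 and 1222 and the G2/M sum 2060 and 2401. In mast cells the S phase sum was 503 and 517 and the G2/M sum 996 and 1082. The order of the gates by these sums was not that of the cycling shares: mast cells had a lower S phase sum than NK cells and a higher cycling share. Classical monocytes had G2/M sums of 60.8 and 44.2, and neutrophils 86.4 and 48.4.

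Monocytes and neutrophils were not at 0 for the S phase set, and a pair of genes made up most of what they had. The S phase sum was 202 CPM in library 1 and 210 in library 2 in classical monocytes, and 213 and 180 in neutrophils. Pcna and Slbp, which binds the stem-loop of histone messages, gave 57.9% and 60.5% of these S phase UMIs in classical monocytes and 55.1% and 80.8% in neutrophils. In T cells they gave 26.7% and 29.5%. Pcna, which also serves DNA repair, and Slbp had UMIs in gates where 0 or 1 cycling cell was seen.

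The ratio of the G2/M sum to the S phase sum differed between the cycling gates. It was 2.21 in library 1 and 1.97 in library 2 in cDC1, and 1.98 and 2.09 in mast cells. In T cells it was 1.35 and 1.12, and in NK cells 1.04 and 0.722. In classical monocytes it was 0.301 and 0.210. In cDC2 the libraries stood apart, with 0.481 in library 1 and 1.48 in library 2, where 5 cells were G2/M only. T cells held 54.5% of all G2/M UMIs of library 1 and 53.1% of library 2, from 40.2% and 44.0% of the kept cells.

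**Figure D2:**
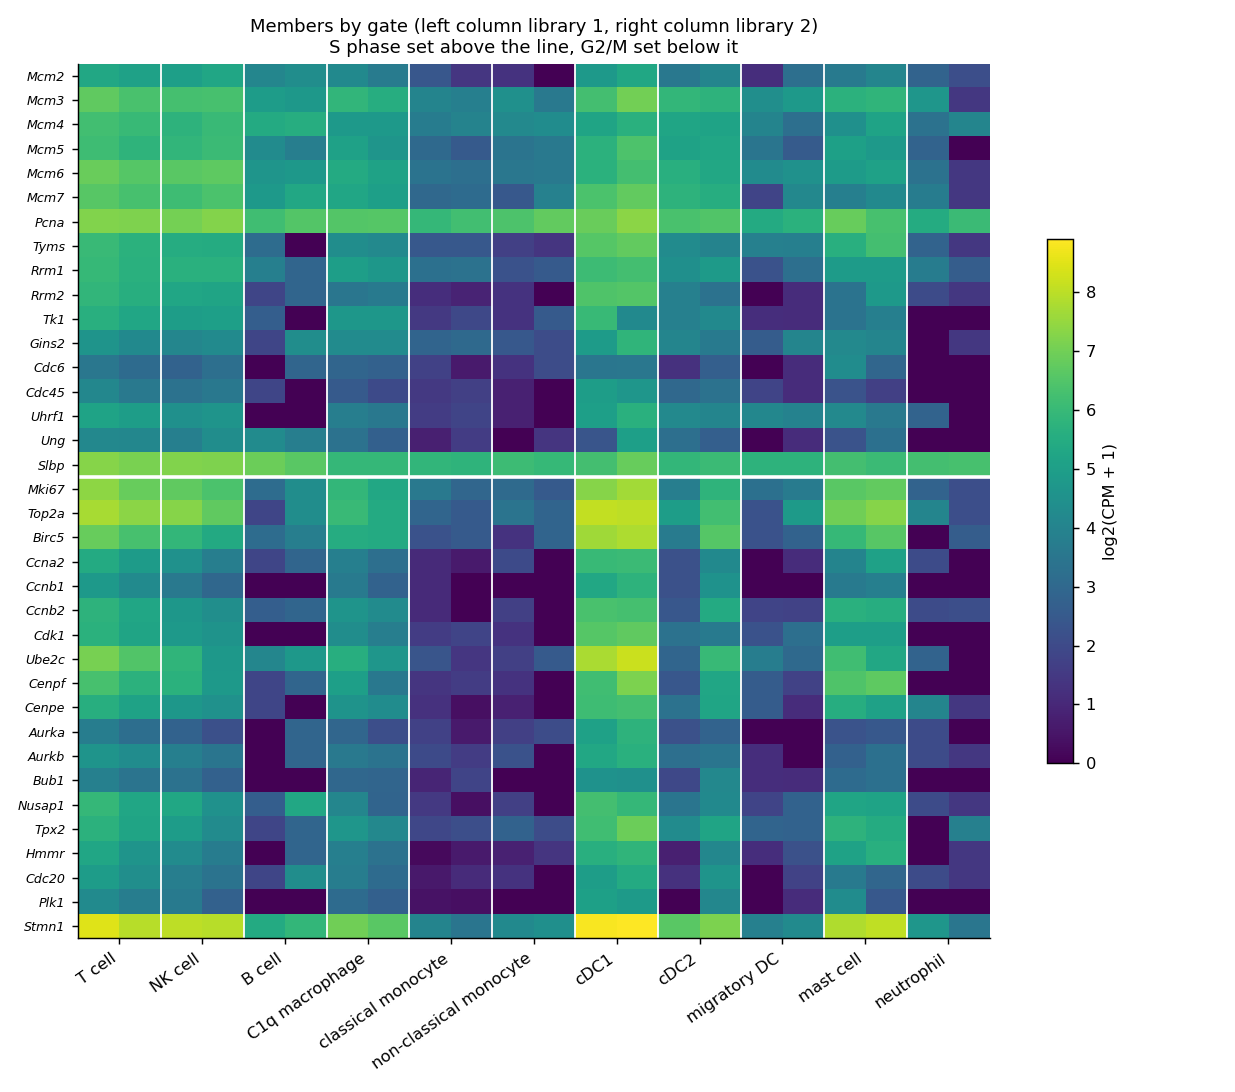
Level of each member as log2(CPM + 1) in 11 gates, with library 1 in the left column of a pair and library 2 in the right; the S phase set is above the white line and the G2/M set below it. Pcna and Slbp show colour in every gate, while most G2/M rows are dark in monocytes, B cells, migratory dendritic cells and neutrophils.

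Among S phase members, the clamp Pcna had 150 CPM in library 1 and 144 in library 2 in T cells, 132 and 150 in NK cells, and 90.5 and 92.7 in C1q macrophages. Slbp had 154 and 137 CPM in T cells, 149 and 145 in NK cells, and 59.8 and 60.3 in macrophages. Neither gene was past 1.5-fold between the libraries in these gates. The MCM genes encode the replicative helicase and showed more of a gap in T cells. Mcm6 had 117 and 93.0 CPM in T cells, 98.98 and 103 in NK cells, and 42.5 and 33.8 in macrophages. Mcm3 had 106 and 80.8 CPM in T cells, 76.2 and 78.5 in NK cells, and 56.7 and 45.3 in macrophages. Mcm7 had 95.1 and 78.8 CPM in T cells, 69.8 and 82.1 in NK cells, and 37.4 and 31.4 in macrophages. All 3 helicase genes were higher in library 1 in T cells and macrophages, and lower in library 1 in NK cells. The intervals of the log2 ratio held 0 for Mcm6 and Mcm3 in NK cells and for Mcm7 in macrophages.

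Among G2/M members, Stmn1, whose protein destabilises microtubules, had 354 CPM in library 1 and 249 in library 2 in T cells, 257 and 246 in NK cells, and 126 and 98.2 in macrophages. Top2a, which untangles DNA before division, had 215 and 161 CPM in T cells, 155 and 104 in NK cells, and 64.0 and 43.0 in macrophages. Mki67 had 167 and 113 CPM in T cells, 105 and 81.97 in NK cells, and 58.2 and 39.8 in macrophages. These were higher in library 1 in each of the 3 gates, by the least for Stmn1 in NK cells. Ube2c, the ubiquitin-conjugating enzyme of the anaphase-promoting complex, had 135 and 88.6 CPM in T cells, 56.0 and 26.1 in NK cells, and 47.1 and 24.7 in macrophages. Birc5, the survivin subunit of the chromosomal passenger complex, had 113 and 78.2 CPM in T cells, 59.1 and 41.9 in NK cells, and 44.4 and 42.8 in macrophages. Ube2c thus stood over 2 times as high in library 1 in NK cells, and Birc5 was level in macrophages.

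The gap between the libraries was wider for G2/M than for S phase genes. In T cells the G2/M sum had a log2 ratio of library 1 over library 2 of 0.52 (interval 0.50 to 0.55) and the S phase sum 0.26 (0.23 to 0.28). In NK cells the G2/M sum had 0.42 (0.37 to 0.46), while the S phase sum had -0.11 (-0.15 to -0.08) and was lower in library 1. In C1q macrophages the ratios were 0.53 (0.45 to 0.60) and 0.16 (0.09 to 0.24). Without Stmn1 the NK G2/M ratio was 0.57. These values compare 2 libraries, and spread between animals or sorts was not measured. The intervals count each UMI as a separate draw, although a dividing cell holds many of these UMIs. Spread between cells is thus not covered either.

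Single members past 1.5-fold were all higher in library 1. In T cells 0 of 17 S phase and 5 of 19 G2/M members were past 1.5-fold higher and 0 of 36 past 1.5-fold lower, beside 3.3% of 12573 genes higher and 3.72% lower. In NK cells 0 S phase and 9 G2/M members were past it higher and 0 lower, beside 2.98% of 10724 genes higher and 2.53% lower. In C1q macrophages 2 S phase and 7 G2/M members were past it higher and 0 lower, beside 4.39% of 9807 genes higher and 3.07% lower. Below that size, all 19 G2/M members had a ratio above 1 in each of the 3 gates. The S phase members had 17 of 17 above 1 in T cells, 3 of 17 in NK cells and 14 of 17 in macrophages. On the log2 scale the intervals of 2, 10 and 12 S phase members held 0 in these gates. So did those of 0, 2 and 6 G2/M members. The share of all genes with an interval that holds 0 was not counted, so these counts are not read as particular to the members. The median log2 ratio of all genes was -0.04 in T cells, -0.05 in NK cells and -0.02 in macrophages.

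In T cells the ratios were close together. The highest were Hmmr, a spindle-binding protein, with 37.7 CPM in library 1 and 23.4 in library 2 (log2 0.68, interval 0.53 to 0.84), Nusap1, which bundles spindle microtubules, with 60.4 and 38.0 (0.67, 0.55 to 0.79), and Aurka, a kinase of spindle poles, with 12.6 and 8.20 (0.62, 0.36 to 0.88). The lowest were Pcna (0.05, -0.01 to 0.12), the uracil glycosylase Ung with 16.9 and 16.2 CPM (0.06, -0.14 to 0.26) and Slbp (0.17, 0.10 to 0.24). Cdc45 was the S phase member with the highest ratio, with 16.47 and 11.3 CPM (0.55, 0.33 to 0.77).

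In NK cells the sets split. The highest ratios were Ube2c (1.10, 0.90 to 1.31), the Polo-like kinase Plk1 with 11.6 CPM in library 1 and 5.81 in library 2 (0.99, 0.56 to 1.46) and the kinetochore protein Cenpf with 51.0 and 27.0 (0.92, 0.71 to 1.12). The lowest were Ung with 13.3 and 19.5 CPM (-0.54, -0.85 to -0.24), Cdc6 with 5.97 and 8.42 (-0.50, -0.96 to -0.04) and Mcm4 with 53.3 and 64.3 (-0.27, -0.42 to -0.11). The state shares of NK cells were nevertheless close: S only in 5.29% of library 1 and 5.86% of library 2, S and G2/M in 4.23% and 4.34%, and G2/M only in 2.65% and 2.22%. The G2/M only NK cells held a mean of 19.2 G2/M UMIs per thinned cell in library 1 (30 cells) and 12.1 in library 2 (22 cells).

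In C1q macrophages the highest ratios were Cenpf with 31.9 CPM in library 1 and 10.9 in library 2 (1.53, 1.12 to 1.98), Nusap1 with 16.0 and 6.36 (1.32, 0.78 to 1.93) and the cyclin Ccnb1 with 11.8 and 5.97 (0.96, 0.39 to 1.61). The lowest were Rrm2, a subunit of ribonucleotide reductase, with 10.4 and 11.3 CPM (-0.13, -0.61 to 0.37), Pcna (-0.04, -0.20 to 0.13) and Slbp (-0.01, -0.21 to 0.19). These rest on few cells: 32 cells of library 1 and 19 of library 2 were G2/M only, with a mean of 17.6 and 9.53 G2/M UMIs. Among members with 200 or more UMIs in both libraries together, 2 in place of 9 were past 1.5-fold.

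**Figure D3:**
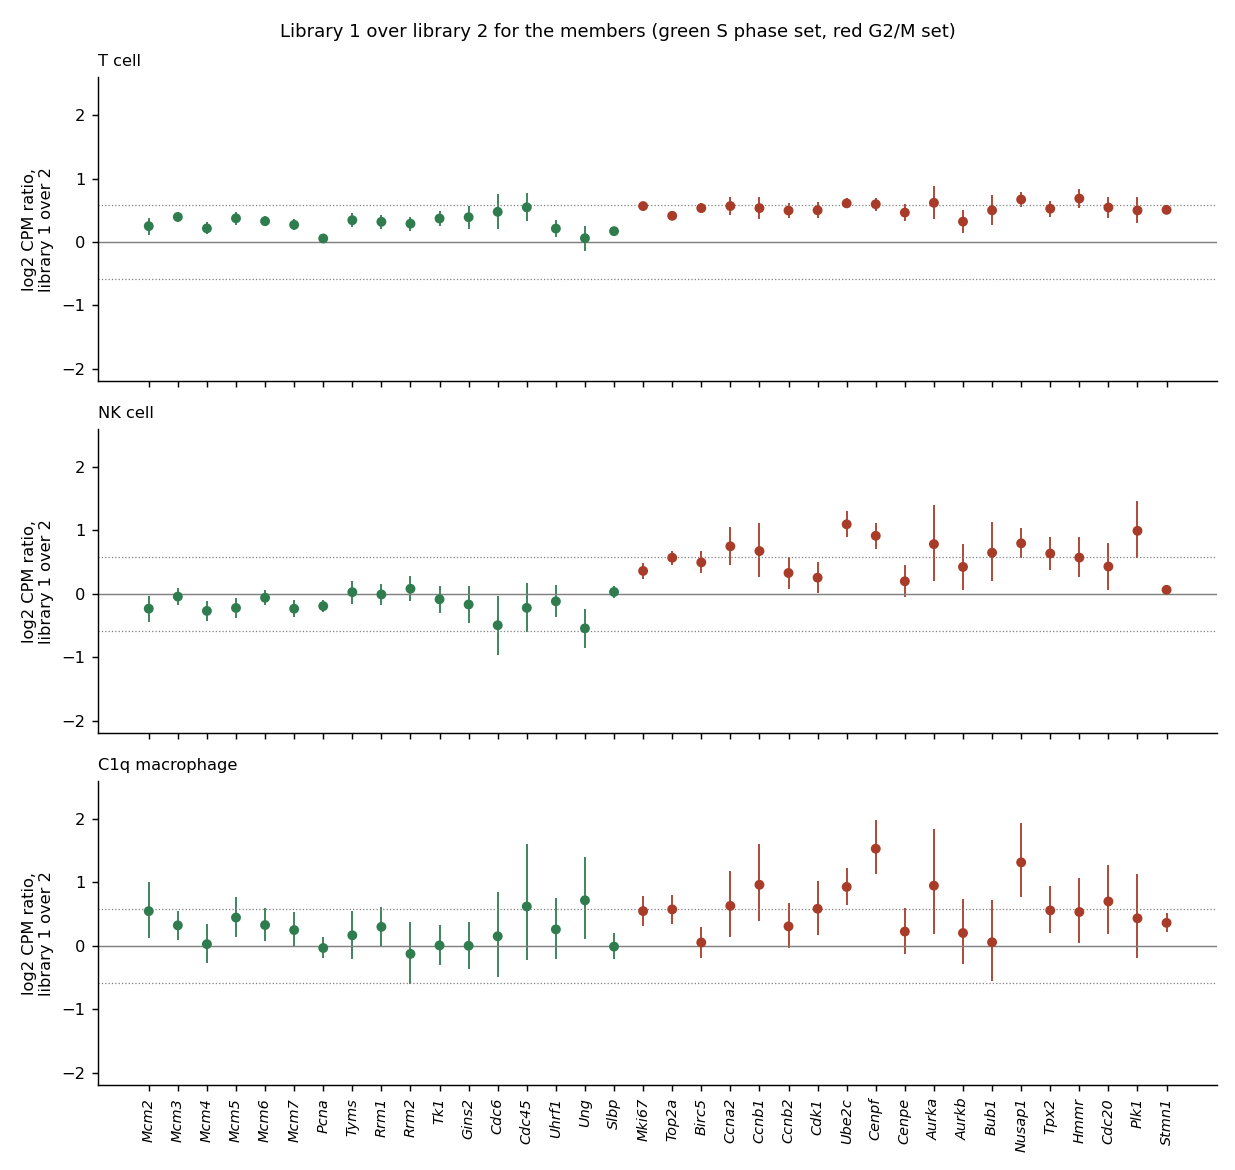
Log2 CPM ratio of library 1 over library 2 for the 36 members in T cells, NK cells and C1q macrophages, with exact 95% intervals for counting error; dotted lines mark 1.5-fold. The S phase members (green) lie above 0 in T cells and mostly below 0 in NK cells, and the G2/M members (red) lie above 0 in all 3 panels.

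In T cells library 1 had more cells in each cycling state, while the levels per cycling cell were close. S only cells made up 4.48% of T cells in library 1 and 3.04% in library 2, S and G2/M cells 7.86% and 4.97%, and G2/M only cells 5.43% and 2.97%. Per thinned cell, G2/M only T cells had a mean of 17.4 G2/M UMIs in library 1 and 18.6 in library 2. S and G2/M cells had 15.3 and 16.4, and S only cells had 8.77 and 8.59 S phase UMIs. Other T cells had 1.28 and 1.27 S phase UMIs and 0.415 and 0.303 G2/M UMIs.

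Cycling T cells carried more RNA than the others. The median depth was 13985 UMIs in library 1 and 12554 in library 2 in S only cells, 18933 and 17468 in S and G2/M cells, and 14964 and 12872 in G2/M only cells, against 6960 and 6714 in other T cells. No doublet caller was run, and the part of doublets within a gate was not tested. The cells with markers of a second lineage, which were left out, had medians of 19325 and 17548 UMIs, and 17.6% and 17.7% of them were cycling. The median mitochondrial share was alike in all states of T cells, 1.17% to 1.31% in library 1 and 1.38% to 1.53% in library 2.

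By T cell subset as gated at full depth, cycling cells were most common in CD8 T cells with UMIs of both Pdcd1 (PD-1) and Havcr2 (TIM-3), receptors of chronically stimulated T cells. There 31.8% of 872 cells were cycling in library 1 (interval 28.7 to 34.97) and 18.3% of 711 in library 2 (15.5 to 21.3). CD8 T cells without a UMI of either receptor had 8.30% of 458 (5.94 to 11.2) and 6.14% of 456 (4.12 to 8.75). Cells with Foxp3, the factor of regulatory T cells, had 16.0% of 393 (12.5 to 20.0) and 10.1% of 227 (6.53 to 14.8). Other CD4 T cells had 5.76% of 139 (2.52 to 11.0) and 2.86% of 140 (0.784 to 7.15). CD8 T cells with Pdcd1 and Tcf7 and without Havcr2, a profile of progenitor-like cells, had 15.3% of 72 (7.88 to 25.7) and 8.77% of 57 (2.91 to 19.3).

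The subsets depend on depth, because a cell enters some of them with a single UMI and cycling cells are deeper. The median was 10145 UMIs in library 1 and 8492 in library 2 in the subset with Pdcd1 and Havcr2, beside 6091 and 6066 in CD8 T cells without either. When subsets were read on cells thinned to 3000 UMIs, the share with both receptors was 18.9% and 10.9%, beside 15.7% and 9.28% without either. The remaining CD8 T cells then had 21.6% in library 1 and 12.7% in library 2, so the subset with both receptors was no longer the highest, and no order of the subsets is read from these shares. The subset with Pdcd1 and Tcf7 then had 4% and 0%. The subset with Foxp3 then had 7.06% in library 1 and 8.39% in library 2, which turns its order between libraries. The CD8 subsets with and without both receptors had a higher share in library 1 either way.

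**Figure D4:**
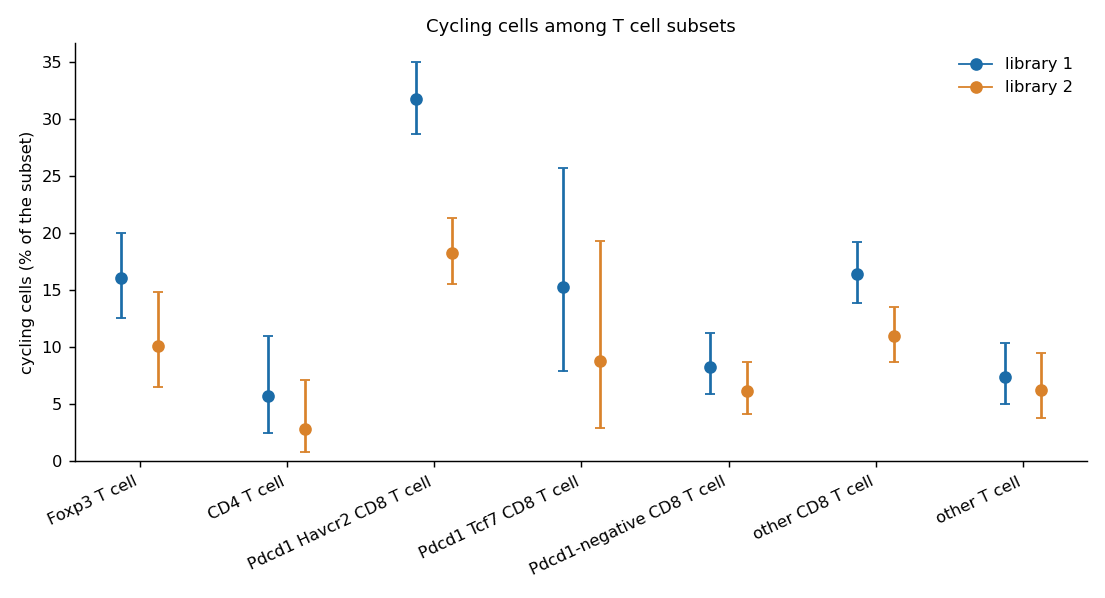
Cycling cells in percent of each T cell subset, with exact 95% intervals for counting error; the blue point on the left is library 1 and the orange point on the right library 2. Library 1 lies above library 2 in every subset as gated at full depth, most clearly in CD8 T cells with Pdcd1 and Havcr2, at 31.8% against 18.3%.

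The members followed each other through the states of T cells. For each member a cell's state was set without that member's own UMIs, and its mean per thinned cell was compared between G2/M only and S only cells. This describes the order of the members and tests nothing, since the other members placed the cells. The cells of a state also differ from member to member. In library 1, 14 of 17 S phase members were lower in G2/M only cells and 19 of 19 G2/M members higher, and in library 2 it was 13 of 17 and 19 of 19. The order was alike in the libraries, with a Pearson correlation of 0.95 across the 36 members in T cells and 0.87 in NK cells. Members share their cells and are not independent points.

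Ung, Mcm2 and Mcm6 were among the members with the lowest ratios. Ung, which removes uracil from DNA, had 0.252 UMIs per S only cell and 0.012 per G2/M only cell in library 1 (log2 ratio of G2/M only over S only -4.13, interval -7.53 to -2.46) and 0.286 and 0.013 in library 2 (-3.91, -9.83 to -1.83). Mcm2 had 0.444 per S only cell and 0.058 per G2/M only cell in library 1 (-2.88, -4.07 to -1.95) and 0.452 and 0.115 in library 2 (-1.91, -3.22 to -0.88). Both were highest in S only cells in both libraries. Of the 17 S phase members, 5 were highest in S only cells in library 1 and 6 in library 2, and the other 12 and 11 in S and G2/M cells.

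In T cells the nucleotide enzymes stood between the sets. Rrm2 had 0.086 UMIs per S only cell, 0.821 per S and G2/M cell and 0.323 per G2/M only cell in library 1, and 0.101, 0.851 and 0.294 in library 2. Rrm1, the other subunit of the reductase, had 0.168, 0.722 and 0.274 in library 1, and 0.234, 0.675 and 0.472 in library 2. Both were thus highest in cells high for both sets. Tyms, the thymidylate synthase, had a log2 ratio of 0.31 (-0.33 to 1.00) in library 1 and 0.53 (-0.56 to 1.73) in library 2. The thymidine kinase Tk1 had -0.05 (-0.72 to 0.65) in library 1 and 1.58 (0.52 to 2.89) in library 2. These intervals overlap, and the S only cells of library 2 held 9 Tk1 UMIs. In NK cells the libraries differed. Rrm1 had a log2 ratio of 0.88 (-0.40 to 2.16) in library 1 and -1.40 (-4.85 to 0.43) in library 2. Rrm2 had 2.81 (0.78 to 6.30) in library 1 and -1.41 in library 2, from 3 UMIs in S only and 0 in G2/M only cells.

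On the G2/M side, Stmn1, Cdk1, Top2a and Mki67 were among those with UMIs in S only cells, as placed without the member's own UMIs. Leaving out a member with many UMIs moves cells that hold it into S only. For Stmn1 that group was 207 T cells in library 1, beside 140 when all members placed the cells. These values therefore do not show that the 4 genes come on before the rest of the set. Stmn1 had 1.57 UMIs per S only cell, 4.81 per S and G2/M cell and 2.68 per G2/M only cell in library 1, and 1.24, 5.06 and 3.07 in library 2. Top2a had 0.338, 2.56 and 1.58 in library 1, and 0.279, 2.66 and 1.58 in library 2. Cdk1 had 0.117, 0.523 and 0.402 in library 1, and 0.062, 0.575 and 0.403 in library 2. Stmn1, Top2a and Cdk1 peaked in S and G2/M cells in both libraries. Mki67 had 0.312, 1.87 and 1.74 in library 1, and 0.146, 1.71 and 2.09 in library 2, where it peaked in G2/M only cells.

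Several members were nearly absent from S only cells. Hmmr had 0 UMIs in the S only cells of both libraries and 0.647 UMIs per G2/M only cell in library 1 and 0.597 in library 2. Cyclin A2 (Ccna2) also had 0 in both, and 0.376 and 0.506 per G2/M only cell. Cenpf had 0.021 per S only cell and 1.42 per G2/M only cell in library 1, and 0 and 1.57 in library 2. Ube2c had 0.035 and 2.31 in library 1 (log2 5.90, 4.80 to 7.67) and 0.050 and 2.28 in library 2 (5.34, 4.13 to 7.40). Ube2c, Cenpf, Hmmr, Ccnb1, Ccnb2, Cdc20 and Plk1 were highest in G2/M only cells in both libraries. Of the 19 G2/M members, 11 peaked there in library 1 and 12 in library 2.

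**Figure D5:**
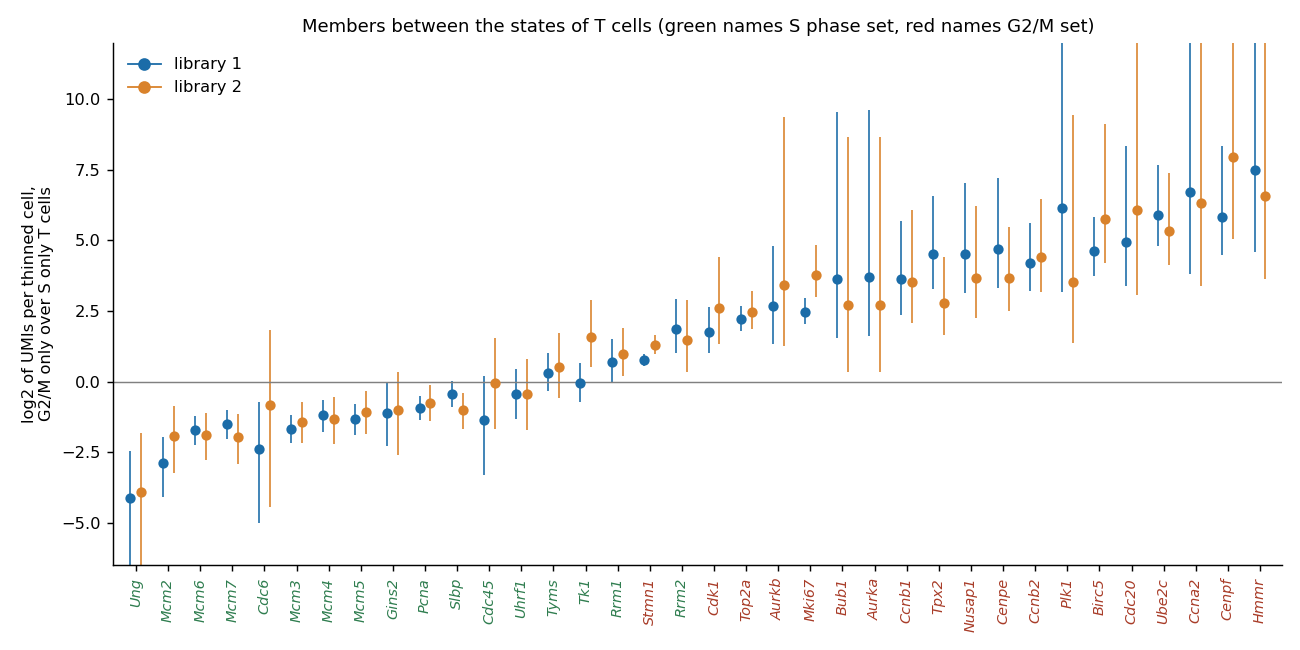
Log2 ratio of UMIs per thinned cell in G2/M only over S only T cells for each member, ordered by the mean of both libraries, with exact 95% intervals for counting error; library 1 is blue and library 2 orange, and a line that leaves the plot has no end on this scale or lies beyond it. The order runs from Ung at -4.13 and -3.91 through Rrm1, Stmn1 and Rrm2 near the middle to Cenpf and Hmmr at the right.

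Across T cells, pairs within the G2/M set had higher correlations than pairs within the S phase set. Over 171 pairs of G2/M members the median Pearson correlation across thinned T cells was 0.347 in library 1 and 0.355 in library 2. Over 136 S phase pairs it was 0.169 and 0.147, and over 323 pairs between the sets 0.083 and 0.089. The highest pair was Ube2c with Cenpf (0.671 and 0.630), then Top2a with Stmn1 (0.645 and 0.612). Between the sets it was Rrm2 with Stmn1 (0.557 and 0.556), and among S phase pairs Rrm1 with Rrm2 (0.352 and 0.368). Cells were at equal depth and each library was taken on its own. Counts per cell are sparse, so a low value is not read as a lack of relation, and the gap between the sets is a description.

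Other cell cycle genes were set against the same cells, as CPM in the 556 cycling T cells of library 1 and 285 of library 2 over the 2572 and 2312 other T cells. Past 1.5-fold in both libraries, 10.0% of 10840 genes were higher in cycling cells and 11.0% lower. The members themselves placed the cells, so their 36 of 36 higher is by construction. Of 28 genes of origin licensing and the replication fork, 27 were higher and 1 lower. Of 27 genes of the spindle, kinetochore, condensin and mitotic exit, 26 were higher and 0 lower. The exceptions, named after their values were seen, were the reductase subunit Rrm2b, a p53 target, with 19.9 CPM in cycling and 32.3 in other cells of library 1 and 18.0 and 32.1 in library 2, and securin (Pttg1) with 105 and 113 in library 1 and 94.2 and 115 in library 2.

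Among the licensing and fork genes, Mcm10, which helps to start the fork, had the widest ratio, with 27.0 CPM in cycling and 0.583 in other cells of library 1 and 31.6 and 0.517 in library 2. The GINS subunit Gins1 had 15.1 and 1.75 in library 1 and 14.7 and 0.747 in library 2, and the leading-strand polymerase Pole had 29.8 and 3.30 in library 1 and 30.2 and 2.36 in library 2. Among spindle genes, the kinesin Kif2c had 33.6 CPM in cycling and 0.437 in other cells of library 1, and 27.9 and 0 in library 2. The phosphatase Cdc25c had 12.95 and 0.146 in library 1 (log2 6.26, interval 4.89 to 8.77) and 12.8 and 0.115 in library 2 (6.49, 4.89 to 9.88). The kinesin Kif4 had 57.1 and 1.02 in library 1 and 58.1 and 0.460 in library 2.

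The regulators of G1 and of transcription divided by member. Of 8 G1 cyclins and kinases 4 were higher in cycling cells and 1 lower, of 20 E2F, pocket protein, MuvB and mitotic factors 10 were higher and 0 lower, and of the 5 of 7 CDK inhibitors with enough UMIs 2 were higher and 1 lower. The E cyclins Ccne2 and Ccne1 were higher, Ccne2 with 26.6 CPM in cycling and 1.99 in other cells of library 1 and 23.8 and 1.95 in library 2, and Ccne1 with 47.7 and 8.16 in library 1 and 45.5 and 8.16 in library 2. Their partner kinase Cdk2 had 18.4 and 4.18 in library 1 and 22.1 and 4.02 in library 2. Cyclin D2 (Ccnd2), named as the 1 lower gene of its list, ran the other way, with 181 CPM in cycling and 413 in other cells of library 1 and 219 and 441 in library 2.

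Of the inhibitors, p27 (Cdkn1b), which holds resting cells out of the cycle, had 103 CPM in cycling and 217 in other cells of library 1 and 112 and 224 in library 2. Cdkn2a, the locus of p16 and ARF, had 23.7 and 4.81 in library 1 and 18.2 and 4.02 in library 2, and Cdkn2c (p18) 56.3 and 24.0 in library 1 and 59.7 and 24.9 in library 2. Cdkn2d (p19) had 84.4 and 61.0 in library 1 and 90.5 and 67.0 in library 2, which is under 1.5-fold. The repressor E2Fs E2f7 and E2f8 and the mitotic factor Foxm1 had the widest ratios among the factors by the mean log2 of both libraries, though in library 2 alone Mybl2, a partner of MuvB, at 5.49 was above E2f7 at 5.19 and E2f8 at 4.93. E2f7 had 18.5 CPM in cycling and 0.388 in other cells of library 1 and 17.8 and 0.460 in library 2. E2f8 had 24.3 and 0.534 in library 1 and 27.1 and 0.862 in library 2, and Foxm1 20.9 and 0.826 in library 1 and 29.3 and 0.460 in library 2.

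Across 13 gates in both libraries, 26 points in all, the genes whose log2(CPM + 1) ran closest to the S phase sum were Dut (Pearson r = 0.94), Ran (0.93), E2f7 (0.92), Hells (0.90) and Lsm5 (0.90), among 11685 genes with 200 or more UMIs. For the G2/M sum they were E2f7 (0.95), Tipin (0.95), Pclaf (0.94), Ran (0.94) and Kif2c (0.94). The points share 2 libraries and differ in depth and cell number, so these are descriptions.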

How the data were processed

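CD45+ lung cells of 1 Siah1a/2 KO and 1 WT sample were profiled. The authors deposited 1 matrix of raw UMI counts for both samples, with annotation and cell calling not given in the sources used here. Cell Ranger 6.1.2 and mm10 are named, per the submitters' processing notes. Barcodes under 500 genes or over 10% mitochondrial UMIs were dropped, and the rest were gated by marker UMIs and thinned to 3000 UMIs. Ratios took genes with 50 or more UMIs, a pseudocount of 0.5 UMI and a size of 1.5-fold. With 1 library of each kind no test was run. Intervals are exact (Clopper-Pearson, Poisson or conditional binomial, 95%). The ratio formula was tested on simulated data with known folds, drawn as independent counts per gene. Such counts hold no clustering of UMIs within cells, so the simulation cannot show how well the intervals hold for these data. Named genes are the members, the 5 of each set with most CPM in T cells, the 3 highest and 3 lowest ratios per gate, the 3 largest ratios per other list and the 5 most alike genes. The members and lists were chosen with earlier results of these data known, and gate thresholds, the numbers of UMIs that call a cell S or G2/M high and the T cell subset alternatives after the data were seen. Alternatives changed the cell filter, gates, depth, members, denominator, minimum UMIs and pseudocount. Python 3.11.15, numpy 2.4.6, scipy 1.17.1, pandas 2.3.3 and matplotlib 3.10.9 were used. Gene positions and promoters came from GENCODE and from RefSeq on GRCm38.p6.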

Additional observations from a re-analysis of the deposited data

Results flagged for a closer look

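The S phase sum stood on different sides of 0 in T cells and NK cells. Its log2 ratio of library 1 over library 2 was 0.26 in T cells and -0.11 in NK cells, a gap of 0.37. Of the S phase members, 17 of 17 had a ratio above 1 in T cells and 3 of 17 in NK cells. In T cells 15 intervals of log2 ratios lay above 0 and 2 held 0. In NK cells 7 lay below 0 and 10 held 0. The share of all genes with such intervals was not counted, so these counts are not read as particular to the members. The median log2 ratio of all genes was -0.04 in T cells and -0.05 in NK cells. With 1 library of each kind, the difference was not tested.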

How the results depend on the processing

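Among the main values recomputed, 173 stayed within the counting interval of the value reported or, for counts of members, within 1.5 times of it, 38 lay outside and 0 changed sign. With lower numbers of member UMIs the cycling share was 24.4% in library 1 and 17.1% in library 2 in T cells, 19.7% and 19.1% in NK cells, and 11.1% in macrophages of library 1. With higher numbers it was 14.4% and 9.09%, 8.55% and 8.59%, and 6.66%. Without thinning it was 33.0% and 24.6% in T cells, 36.5% and 30.7% in NK cells, and 25.1% and 21.5% in macrophages. At 2000 UMIs it was 13.4% and 8.61%, 7.91% and 7.44%, and 6.02% in macrophages of library 1. Without Pcna and Stmn1 it was 15.9% in T cells of library 1 and 9.90% in NK cells of library 2, the T cell S phase log2 ratio was 0.29 and the NK G2/M log2 ratio 0.57, which was also 0.57 without Stmn1 alone. With mitochondrial and ribosomal protein UMIs out of the total, the S phase and G2/M log2 ratios were 0.29 and 0.56 in T cells and -0.071 and 0.46 in NK cells. With second-lineage cells kept, the T cell S phase ratio was 0.28 and the NK G2/M ratio 0.37. With 200 or more UMIs, 2 macrophage members were past 1.5-fold. With gates read on thinned cells, an alternative chosen after seeing the data, the share was 10.4% in NK cells of library 2 and 11.2% in macrophages of library 1, the G2/M ratio was 0.56 in T cells and 0.37 in NK cells, and 8 T cell members were past 1.5-fold. The causes were not tested. The cycling share of T cells was higher in library 1 in 12 of 12 settings (1.34 to 1.66 times), that of NK cells in 5 of 12 and that of macrophages in 11 of 12. No paired analysis was possible because there was 1 library of each kind and no replicate number.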
